A study of Macaca mulatta with 27 samples.

Results

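Cultures of a rhesus macaque ESC line after reprogramming with t2iLGöY were set against primed cultures of the same line, over all genes of the deposited count tables. Both groups were defined only by the culture named in the label or the column header, but the comparison and its 27 gene lists were chosen with earlier results of these data known. The comparison rests on 9 of the 27 bulk RNA-seq libraries of the series, 3 of t2iLGöY cells and 6 of primed cells. Both groups derive from LyonES-tGFP-(S3), a single clone that carries tauGFP under the CAG promoter and STAT3-ERT2, a STAT3 that is activated by tamoxifen. Tamoxifen is not part of t2iLGöY, so that both groups carried the transgene without its activator, and reads of STAT3 may include those of the transgene, which was not tested. Primed cells were passaged mechanically as clumps and reprogrammed cells as single cells after enzymatic dissociation, so that the medium and the passaging method cannot be told apart. The labels call both groups rhesus ESCs, and give the type as primed for the former and as naive for t2iLGöY, with no passage number or time in culture. Whether replicates came from separate cultures is not said, so that p values measure the spread between these libraries, which may be technical.

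t2iLGöY combines titrated inhibitors of MEK and of GSK3 with the cytokine LIF, the protein kinase C inhibitor Gö, and the ROCK inhibitor Y. Inhibition of MEK removes the FGF signal that drives epiblast cells forward, inhibition of GSK3 stabilizes β-catenin, the effector of Wnt signaling, and LIF activates STAT3. In human cells this medium is known for holding the naive state, in which POU5F1, NANOG, and SOX2 are joined by factors of the early epiblast such as KLF17 and DPPA5. Primed cells resemble the later, epithelial epiblast and depend on FGF and Nodal-Activin signaling. In the absence of Nodal and FGF signals, epiblast cells are known to take a neural fate, and Wnt and BMP signals then specify its dorsal part, from which the neural crest, the source of pigment cells and peripheral neurons, arises.

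The 3 t2iLGöY libraries held from 12827393 to 13849980 counts and the 6 primed libraries from 7111886 to 15183387 (median 10606171.5). Values are given as CPM, counts scaled to a common library size after TMM normalization, and 3 counts in a library, taken as the floor below which a transcript was not quantified, corresponded to between 0.204 and 0.43 CPM. Gene length was not used, so that CPM are compared between libraries and not between genes. The primed columns carry the letters J and K, with 3 replicates each, and J3 was the shallowest library. Across genes, which are not independent replicates, its log2 CPM correlated with those of the other primed libraries at 0.905 to 0.917, against 0.936 to 0.959 among the other 5. Without it, 7721 genes were called in place of 7422. The 2 letters also differed from each other. Chi-square per gene, a measure of how far the counts of 2 libraries differ, was 9.11 to 16.95 for pairs within a letter. It was 19.15 to 30.03 for pairs of a J with a K library. The fit had no term for the letter and treated the 6 libraries as replicates of 1 group. Where a group had 3 counts or fewer in each library, the fold is given as a lower bound, with the group set at the floor, if all counts were 0, and otherwise as the ratio of pooled counts with its exact 95% interval. Both cover counting error only. Bulk counts cannot tell apart fewer cells of a type and less RNA per cell.

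Of 13662 genes tested, 7422 (54.3%) differed between t2iLGöY and primed cells (edgeR quasi-likelihood F test, Benjamini-Hochberg adjusted, threshold 0.05). Higher values were found for 3703 genes (27.1%) and lower values for 3719 (27.2%), and the median log2 fold change of all genes was 0.02. Counts within gene lists are to be read against these shares and this median, since a called gene was by itself no rarity. The log2 fold change reached 3 or more for 815 of the genes that rose and for 607 of those that fell. In addition, 85 genes had 3 counts or fewer in each primed library and at least 30 in each t2iLGöY library, and 49 genes showed the opposite.

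**Figure D1:**
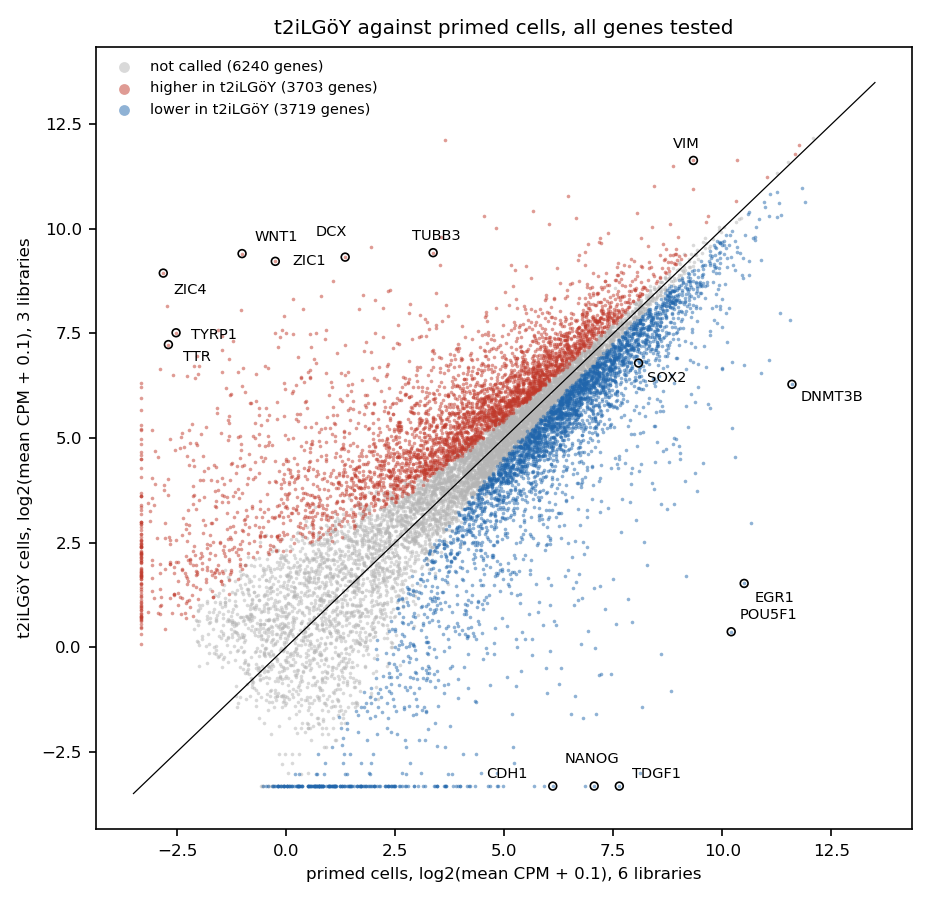
Mean expression of the 13662 genes tested, as log2(mean CPM + 0.1), in primed cells (x axis, 6 libraries) and t2iLGöY cells (y axis, 3 libraries), with a diagonal of equal values. Genes called higher are in red (3703), genes called lower in blue (3719), and the others in gray. NANOG, TDGF1, and CDH1 lie on the bottom edge, where t2iLGöY libraries hold 0 counts, and ZIC4, TTR, and TYRP1 near the left edge.

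The genes that define pluripotency fell. Of 15 core pluripotency factors tested, 14 fell and 0 rose, with a median log2 fold change of -5.43. Their summed level lay between 6681 and 8226 CPM in primed and between 353 and 364 CPM in t2iLGöY libraries, so that the label of ESCs was not matched by the genes of this list in the latter. The sum includes PODXL, a surface glycoprotein and no regulatory factor, with a mean of 1886 CPM in primed and 93.8 CPM in t2iLGöY cells. POU5F1, the factor without which no pluripotent state is known, was found between 1095 and 1301 CPM (median 1173) in primed libraries and at 1.67, 1.83, and 0.0735 CPM in the t2iLGöY libraries (log2 fold change -9.91 ± 0.33 SE, adjusted p = 5.03e-12). NANOG, its partner in the same network, ranged between 108 and 157 CPM (median 134) in primed libraries and had no count in any t2iLGöY library (at least 634-fold lower, adjusted p = 1.71e-11). PRDM14, a repressor that protects pluripotency, went from between 203 and 352 CPM (median 278) to 0, 0, and 0.0735 CPM, with 1 count in the 3 t2iLGöY libraries together (12170-fold lower, 95% counting interval 2183 to 480500, adjusted p = 2.63e-12). For these genes the libraries of the 2 groups were separated by an interval far wider than the spread within either group.

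SOX2, which pluripotent cells share with neural progenitors, kept much more of its expression. Its level was between 214 and 337 CPM (median 265) in primed cells and 102, 118, and 113 CPM in t2iLGöY cells (log2 fold change -1.29 ± 0.15 SE, adjusted p = 4.2e-06), so that every t2iLGöY library lay below every primed library, although the transcript was well detected. The RNA-binding proteins of the pluripotent state fell to different extents. LIN28A, which blocks maturation of the let-7 miRNAs, decreased from between 479 and 659.5 CPM (median 584) to 3.27, 3.53, and 2.72 CPM (log2 fold change -7.49 ± 0.17 SE, adjusted p = 2.22e-13). Its paralog LIN28B decreased from between 279 and 449 CPM (median 381) to 71.1, 92.8, and 104 CPM (log2 fold change -2.07 ± 0.17 SE, adjusted p = 1.11e-07). L1TD1, an RNA-binding protein of ESCs, decreased from between 1133 and 1377 CPM (median 1245) to 30.1, 19.6, and 19.7 CPM (log2 fold change -5.76 ± 0.15 SE, adjusted p = 6.66e-13). SALL4, a zinc-finger partner of POU5F1, had 21.3, 8.75, and 10.7 CPM in t2iLGöY cells after values between 300.4 and 417 CPM (median 344) in primed cells (log2 fold change -4.68 ± 0.26 SE, adjusted p = 1.09e-09). UTF1 was the only member without a call, at up to 5.31 CPM in primed and 1.25 CPM in t2iLGöY cells (log2 fold change -1.66 ± 1.24 SE, adjusted p = 0.278). How the authors' counting treated reads shared with the retrogene copies of POU5F1 and NANOG is not given in the sources used here.

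Naive-state genes did not rise as a group. Of 19 in the table, 11 had enough counts for a test, and 2 rose, 3 fell, and 6 were not called (median log2 fold change -0.78). KLF17, KHDC3L, and FGF4 had 0 counts in all 9 libraries, ARGFX, DPPA3, and DNMT3L had none in t2iLGöY cells, and DPPA5 reached at most 0.956 CPM in 1 t2iLGöY library. These were listed as markers of naive cells, and the naive label of the t2iLGöY libraries was not matched by them. For the genes with 0 counts in all 9 libraries, absent expression cannot be told apart from an annotation that collects no reads. ZFP42, also called REX1, declined from between 48.6 and 74.5 CPM (median 59.9) to 0 counts in each t2iLGöY library (at least 286-fold lower, adjusted p = 4.59e-10). NR5A2, an orphan nuclear receptor, declined from between 31.8 and 46.2 CPM (median 36.8) to 4.1, 4.07, and 4.71 CPM (log2 fold change -3.14 ± 0.23 SE, adjusted p = 2.89e-08). TFE3, a transcription factor that is nuclear in naive cells, declined from between 65 and 90.03 CPM (median 78.1) to 44.4, 44, and 47.4 CPM (log2 fold change -0.78 ± 0.14 SE, adjusted p = 0.000209).

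The 2 members that rose did so from near absence. TBX3, a T-box factor, was at 0 to 0.686 CPM in primed libraries and at 4.86, 3.26, and 3.38 CPM after t2iLGöY (log2 fold change 4.59 ± 1.30 SE, adjusted p = 0.00784). SUSD2, a surface marker of human naive cells, ranged between 0 and 3.49 CPM (median 1.56) in primed libraries and was at 12.9, 6.04, and 12.1 CPM after t2iLGöY (log2 fold change 2.71 ± 0.75 SE, adjusted p = 0.00704). KLF4 was at 4.86, 2.44, and 3.75 CPM in t2iLGöY libraries and ranged between 0 and 2.44 CPM (median 0.701) in primed ones. The 2 ranges just failed to overlap, and the difference did not pass the threshold (log2 fold change 2.15 ± 1.04 SE, adjusted p = 0.0961), which it did without primed replicate J3 (log2 fold change 2.80, adjusted p = 0.0263). KLF4 also passed with K columns alone as primed libraries (3.47, adjusted p = 0.0214) and with all groups in 1 fit (2.17, adjusted p = 0.00455). TFAP2C overlapped between the groups, with values between 7.6 and 39.7 CPM (median 14.3) in primed and 19.9, 11.5, and 21.5 CPM in t2iLGöY libraries (log2 fold change -0.11 ± 0.41 SE, adjusted p = 0.846).

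Genes of the primed state split in both directions. Of 12 tested, 7 fell and 3 rose (median -0.73). FGF2, the growth factor on which primed cells depend, decreased from between 104 and 276 CPM (median 201) to 29.2, 26.5, and 15.3 CPM (log2 fold change -3.06 ± 0.30 SE, adjusted p = 5.35e-07). THY1, a surface glycoprotein of primed cells, decreased from between 60.5 and 94.2 CPM (median 71.2) to 12.9, 14.7, and 14 CPM (log2 fold change -2.41 ± 0.18 SE, adjusted p = 4.16e-08). By contrast, OTX2, a factor of both the late epiblast and the anterior brain, increased from between 95.1 and 151 CPM (median 121) to 312, 337, and 263 CPM (log2 fold change 1.32 ± 0.13 SE, adjusted p = 4.76e-07), and FAT3, an atypical cadherin, increased from between 6.7 and 12.8 CPM (median 10.03) to 105, 102, and 88.4 CPM (log2 fold change 3.32 ± 0.18 SE, adjusted p = 1.21e-09). ZIC2, which is expressed in the late epiblast and in neural progenitors, fell by less, being between 444 and 518 CPM (median 490.2) in primed and 285, 325, and 271 CPM in t2iLGöY libraries (log2 fold change -0.71 ± 0.084 SE, adjusted p = 4.24e-06).

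The Nodal-Activin pathway lost expression of ligand, coreceptor, and feedback genes, whereas its receptors moved little or were not called. Of 11 genes tested, 9 fell and 0 rose (median -3.9). The ligand NODAL was found between 22.1 and 57 CPM (median 36.5) in primed cells, and 2 counts were left in the 3 t2iLGöY libraries (746-fold lower, 95% counting interval 206 to 6160, adjusted p = 7.47e-09). A related ligand, GDF3, was found between 3.79 and 8.95 CPM (median 6.07) in primed cells and at 0 counts in t2iLGöY cells (at least 28.4-fold lower, adjusted p = 1.82e-05). TDGF1, the Nodal coreceptor also called CRIPTO, fell from between 181 and 219.6 CPM (median 199) to 0 counts in each t2iLGöY library (at least 945-fold lower, adjusted p = 6.66e-13). FST, the secreted antagonist of activin, and SMAD7, the inhibitory SMAD, are induced by the pathway and fell as well. FST decreased from between 403 and 511 CPM (median 486) to 22.2, 38.8, and 34.2 CPM (log2 fold change -3.90 ± 0.16 SE, adjusted p = 6.83e-11). SMAD7 decreased from between 97.9 and 174 CPM (median 119) to 23.1, 17.3, and 18.3 CPM (log2 fold change -2.71 ± 0.21 SE, adjusted p = 4.05e-08). The type I receptor ACVR1B overlapped between groups, between 57.2 and 79.6 CPM (median 65) in primed and 82, 79.9, and 75.6 CPM in t2iLGöY libraries (log2 fold change 0.25 ± 0.13 SE, adjusted p = 0.119), as did the type II receptor ACVR2A (log2 fold change 0.35 ± 0.22 SE, adjusted p = 0.189). ACVR2B, the other type II receptor, fell slightly (log2 fold change -0.42 ± 0.10 SE, adjusted p = 0.00257).

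Feedback genes of the MEK-ERK cascade, which are transcribed when ERK is active and are the usual readout of MEK inhibition, were lower with 1 exception. Of 16 tested, 15 fell, 0 rose, and IER3, with overlapping libraries, was not called (median -2.96). IER3 passed the threshold without primed replicate K2 (log2 fold change -1.16, adjusted p = 0.0481) and with all groups in 1 fit (-0.99, adjusted p = 0.0276). The ERK phosphatase DUSP6 decreased from between 523 and 698 CPM (median 542) to 13.1, 19.1, and 14.9 CPM (log2 fold change -5.16 ± 0.15 SE, adjusted p = 1.91e-12). SPRY4, an inhibitor of receptor tyrosine kinase signaling, decreased from between 251 and 488 CPM (median 406) to 9.93, 14.1, and 7.87 CPM (log2 fold change -5.18 ± 0.25 SE, adjusted p = 2.79e-10). ETV4, an ETS factor induced by FGF, decreased from between 145 and 218 CPM (median 180.1) to 2.71, 2.85, and 3.46 CPM (log2 fold change -5.91 ± 0.20 SE, adjusted p = 5.03e-12). In all 3 the primed values stood well apart from those after t2iLGöY. EGR1, an immediate early zinc-finger gene, fell the furthest of the list, from between 1107 and 1770 CPM (median 1483) to 3.27, 2.78, and 2.28 CPM (log2 fold change -9.02 ± 0.22 SE, adjusted p = 3.43e-13). The falls were not of 1 size. SPRED1 and SPRED2 fell by only 1.01 and 1.07 on the log2 scale, and DUSP4 by 1.48.

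Immediate early genes, a list put together after the values had been seen and given as a description, were mostly lower. The list shares EGR1, FOS, FOSL1, and IER3 with the MEK-ERK list. It shares JUNB and SRF with the LIF-STAT3 and the ROCK, SRF, and YAP lists below. All of these but IER3 fell and are thus counted more than once. Of 19 tested, 12 fell and 1 rose. EGR4 was found between 16.7 and 43.3 CPM (median 26.9) in primed cells and FOSB between 15.8 and 34.6 CPM (median 24.4), and both had 0 counts in each t2iLGöY library (at least 135-fold lower, adjusted p = 1.17e-07 for EGR4, and at least 117-fold lower, adjusted p = 1.69e-08 for FOSB). MYC decreased from between 324 and 384 CPM (median 354) to 62.9, 31.8, and 53.6 CPM (log2 fold change -2.85 ± 0.17 SE, adjusted p = 4e-09). The AP-1 genes JUN (log2 fold change -0.24 ± 0.16 SE, adjusted p = 0.208) and JUND (log2 fold change 0.21 ± 0.18 SE, adjusted p = 0.347) overlapped between the groups and were not called. JUN passed as lower with all groups in 1 fit (-0.27, adjusted p = 0.0487) and with J columns alone (-0.45, adjusted p = 0.0155), and JUND as higher with J columns alone (0.48, adjusted p = 0.041).

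Wnt target genes moved the other way. Of 13 tested, 7 rose and 1 fell (median 1.98). AXIN2, the best known transcriptional target of β-catenin, increased from between 4.45 and 10.6 CPM (median 6.73) to 295, 308, and 283 CPM (log2 fold change 5.38 ± 0.17 SE, adjusted p = 3.29e-12). LEF1, the DNA-binding partner of β-catenin, was at 0 to 0.886 CPM in primed cells and at 93.6, 74.6, and 108 CPM in t2iLGöY cells (log2 fold change 9.08 ± 0.56 SE, adjusted p = 4.09e-09). NKD1, a feedback inhibitor, increased from between 2.01 and 4.08 CPM (median 2.54) to 22.2, 21.4, and 21.8 CPM (log2 fold change 2.98 ± 0.34 SE, adjusted p = 3.17e-06), whereas its paralog NKD2 was the member that fell (log2 fold change -2.12 ± 0.82 SE, adjusted p = 0.0413), with overlapping libraries. Its call held without primed replicate K2 or K3 but with none of the other 7 libraries left out (adjusted p 0.0511 to 0.134). RNF43 was not called (log2 fold change 0.05 ± 0.68 SE, adjusted p = 0.954). TCF7 was not called either (log2 fold change -0.59 ± 0.31 SE, adjusted p = 0.127), but passed as lower without primed replicate J3 (-0.77, adjusted p = 0.00615), with K columns alone (-0.93, adjusted p = 0.0021), and with all groups in 1 fit (-0.62, adjusted p = 0.0236).

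Wnt ligands rose along with the targets. In a list of all WNT, RSPO, and FZD symbols, compiled after the values had been seen, 19 of 29 tested rose and 7 fell, with a median of 4.38, or 3.06 when genes at the floor in 1 group are placed at their bound or count ratio. WNT1, the ligand of the dorsal midbrain and of the roof plate, was at 0 to 1.4 CPM in primed cells and at 689, 714, and 637 CPM in t2iLGöY cells (log2 fold change 10.75 ± 0.39 SE, adjusted p = 1.41e-11). WNT3A, a roof plate ligand of the same class, had 2 counts in the 6 primed libraries and 95.4, 93, and 112 CPM in t2iLGöY cells (3136-fold higher, 95% counting interval 868 to 25900, adjusted p = 2.63e-12). WNT4 increased from between 0 and 3.56 CPM (median 1.4) to 346, 377, and 294 CPM (log2 fold change 7.77 ± 0.40 SE, adjusted p = 5.93e-10). R-spondins, secreted enhancers of Wnt signaling, rose with the ligands. RSPO1 increased from between 0 and 4.08 CPM (median 2.24) to 427, 501, and 370.3 CPM (log2 fold change 7.65 ± 0.39 SE, adjusted p = 5.11e-10). RSPO2 had 0 counts in primed cells and 38.5, 36.4, and 44.4 CPM in t2iLGöY cells (at least 131-fold higher, adjusted p = 3.55e-08). RSPO3 increased from between 0.112 and 2.48 CPM (median 0.599) to 229, 252, and 240.2 CPM (log2 fold change 7.94 ± 0.35 SE, adjusted p = 9.81e-11). WLS, the carrier that all Wnt ligands need for secretion, is no member of the list and was chosen after its values were seen. It increased from between 11.3 and 35 CPM (median 19.9) to 1283, 1371, and 1161 CPM (log2 fold change 5.79 ± 0.25 SE, adjusted p = 8.49e-11). The Frizzled receptors exchanged. FZD10, FZD3, FZD1, and FZD2 rose, and FZD5, FZD7, FZD8, FZD4, and FZD6 fell. FZD6 was no longer called without t2iLGöY replicate 1 or 2 (adjusted p = 0.0533 and 0.0824). FZD10 went from between 6.99 and 9.6 CPM (median 8.14) to 158, 198, and 155 CPM (log2 fold change 4.38 ± 0.14 SE, adjusted p = 5.03e-12), and FZD7, the main Frizzled of ESCs, from between 393 and 667 CPM (median 493) to 24.1, 28.5, and 30.7 CPM (log2 fold change -4.21 ± 0.19 SE, adjusted p = 1.41e-10). WNT5A and WNT8A were the ligands that fell.

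Genes of the BMP pathway rose as well. In this list, also compiled after the values had been seen, 13 of 18 tested rose and 0 fell (median 1.95). BMP6 was found between 0 and 1.94 CPM (median 0.377) in primed cells and at 112, 115, and 79.5 CPM in t2iLGöY cells (log2 fold change 7.29 ± 0.55 SE, adjusted p = 3.69e-08). GDF7, a BMP ligand of the roof plate, increased from between 0 and 1.51 CPM (median 0.505) to 26.3, 25.4, and 32.1 CPM (log2 fold change 5.48 ± 0.69 SE, adjusted p = 8.69e-06). Among BMP targets, ID2 increased from between 11.4 and 21.3 CPM (median 15.6) to 107, 96.2, and 112 CPM (log2 fold change 2.75 ± 0.18 SE, adjusted p = 6.52e-09), and ID1, ID3, and ID4 rose by 0.63, 1.29, and 1.5 on the log2 scale, the call of ID1 being lost without t2iLGöY replicate 2 (0.46, adjusted p = 0.0796). BMP4 was not called (log2 fold change -0.47 ± 0.36 SE, adjusted p = 0.288).

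Genes of LIF-STAT3 signaling went in both directions. Of 12 genes tested, 6 rose and 3 fell (median 0.82). IL6ST, the signal-transducing receptor subunit gp130, increased from between 33 and 92 CPM (median 59.4) to 196, 212, and 179.9 CPM (log2 fold change 1.68 ± 0.22 SE, adjusted p = 1.17e-05). Its partner LIFR increased from between 33.5 and 64.2 CPM (median 45.4) to 78.9, 105, and 77.4 CPM (log2 fold change 0.89 ± 0.20 SE, adjusted p = 0.00162), and the kinase JAK1 from between 52.3 and 78.6 CPM (median 65.2) to 154, 153, and 139.7 CPM (log2 fold change 1.18 ± 0.13 SE, adjusted p = 1.65e-06). None of these overlapped between groups. STAT3 itself increased from between 100.1 and 214 CPM (median 148) to 309, 298, and 304 CPM (log2 fold change 1.02 ± 0.20 SE, adjusted p = 0.000531). Of the other kinases, TYK2 rose (log2 fold change 1.15 ± 0.31 SE, adjusted p = 0.00583) and JAK2 was not called (log2 fold change -0.37 ± 0.28 SE, adjusted p = 0.282). The cytokine LIF fell, from between 3.91 and 12.2 CPM (median 6.55) to 0.347, 1.15, and 1.4 CPM (log2 fold change -2.86 ± 0.66 SE, adjusted p = 0.0019). SOCS3, the most direct target of STAT3, overlapped between groups, between 23.3 and 57.4 CPM (median 40.7) in primed and 42.1, 43.6, and 39.3 CPM in t2iLGöY libraries (log2 fold change 0.11 ± 0.24 SE, adjusted p = 0.734). PIM3 was not called (log2 fold change 0.75 ± 0.32 SE, adjusted p = 0.0623), but passed as higher without primed replicate K1 or K3 (0.88 in both, adjusted p = 0.0372 and 0.0331). It also passed with J columns alone (1.3, adjusted p = 0.00554) and with all groups in 1 fit (0.72, adjusted p = 0.0111). The same held with at least 10 counts in every library (0.81, adjusted p = 0.034). The targets PIM1 and JUNB fell (log2 fold change -3.13 ± 0.20 SE, adjusted p = 4.86e-09, and log2 fold change -2.71 ± 0.38 SE, adjusted p = 2.65e-05), and BCL3 rose from near the floor to 4.79, 5.16, and 2.5 CPM (log2 fold change 5.09 ± 1.26 SE, adjusted p = 0.00316).

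The kinases addressed by Gö and Y were themselves lower for the most part. Of 8 protein kinase C genes, 5 fell and 1 rose (median -1.28). PRKCB decreased from between 40.6 and 58.8 CPM (median 51.1) to 7.85, 4.82, and 5.22 CPM (log2 fold change -3.07 ± 0.23 SE, adjusted p = 4.06e-08), and PRKCE increased from between 0 and 5.95 CPM (median 3.26) to 14.8, 11.7, and 13.4 CPM (log2 fold change 2.22 ± 0.71 SE, adjusted p = 0.0163), a rise no longer called without t2iLGöY replicate 1 (adjusted p = 0.0584). ROCK1 and ROCK2 fell by 0.79 and 1.21 on the log2 scale. They belong to a list that also holds RHOA, RHOB, and targets of SRF and YAP, which respond to actin tension. Of its 13 genes, 10 fell and 1 rose (median -1.21). RHOA and RHOB were not called (log2 fold change 0.12 ± 0.073 SE, adjusted p = 0.196, and log2 fold change 0.30 ± 0.14 SE, adjusted p = 0.0931), although RHOB passed as higher without primed replicate K1 (0.42, adjusted p = 0.00166). RHOB also passed with J columns alone (0.42, adjusted p = 0.00223). The same held with all groups in 1 fit, with at least 10 counts in every library, and by DESeq2 (adjusted p 0.033 to 0.048). The gene that rose was ACTA2, smooth muscle actin (log2 fold change 0.45 ± 0.18 SE, adjusted p = 0.0431), with overlapping libraries. Its call was lost without any of primed replicates J1, J2, K2, and K3 and t2iLGöY replicates 1 and 2 (adjusted p 0.0678 to 0.235). ANKRD1, a YAP target, was found between 30.4 and 100.4 CPM (median 40.03) in primed cells and at 0 counts in t2iLGöY cells (at least 243-fold lower, adjusted p = 8.39e-08). CYR61, another YAP target, decreased from between 857 and 1609 CPM (median 1194) to 41.9, 38.3, and 33.6 CPM (log2 fold change -4.97 ± 0.24 SE, adjusted p = 2.33e-10), and CNN1, a smooth muscle calponin regulated by SRF, from between 91.6 and 121 CPM (median 114) to 2.29, 2.92, and 1.25 CPM (log2 fold change -5.66 ± 0.23 SE, adjusted p = 5.5e-11).

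Neural patterning factors had the highest median of all lists. Of 20 factors of neural patterning tested, 15 rose and 0 fell, with a median log2 fold change of 7.23, or 6.64 with genes at the floor placed at their bound or ratio. The dorsal factors were conspicuous. ZIC1, a zinc-finger factor of the dorsal neural tube, ranged between 0 and 2.04 CPM (median 0.706) in primed libraries and reached 588, 668, and 539 CPM in t2iLGöY libraries (log2 fold change 9.52 ± 0.30 SE, adjusted p = 3.59e-12). ZIC4, of the same family, had 2 counts in the 6 primed libraries and 556, 543, and 378 CPM in t2iLGöY cells (15540-fold higher, 95% counting interval 4303 to 128400, adjusted p = 7.78e-14). Both were close to absent from primed cells. PAX3, which marks the dorsal neural tube and the crest, increased from between 0 and 4.45 CPM (median 1.56) to 218, 158, and 200.5 CPM (log2 fold change 6.87 ± 0.45 SE, adjusted p = 7.39e-09), and PAX7 from 0 counts to 23.4, 13.6, and 13.1 CPM (at least 55.2-fold higher, adjusted p = 2.83e-06). In all of these genes the t2iLGöY libraries lay above every primed library. LMX1A, which specifies the roof plate, was at 0 to 1.33 CPM in primed cells and at 209, 206, and 163 CPM in t2iLGöY cells (log2 fold change 9.51 ± 0.48 SE, adjusted p = 4.98e-10). MSX1, a BMP-responsive homeobox gene, was at 0 to 1.86 CPM and at 71.1, 54.1, and 46.8 CPM (log2 fold change 6.87 ± 0.72 SE, adjusted p = 1.19e-06).

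Markers of other positions along the neural tube were mixed. OLIG2 of the ventral tube was at up to 3.26 CPM and without a call (log2 fold change 3.44 ± 1.52 SE, adjusted p = 0.0702), although without primed replicate J1, the only primed library with counts, it was called (adjusted p = 0.00454). It was also called with K columns alone (adjusted p = 0.00393) and with all groups in 1 fit (adjusted p = 0.00867). NKX2-2 had 0 counts in all 9 libraries. OTX1, a factor of forebrain and midbrain, was at 0 to 1.45 CPM in primed cells and at 122, 134, and 96 CPM in t2iLGöY cells (log2 fold change 8.37 ± 0.51 SE, adjusted p = 3.48e-09). EN1, of the midbrain-hindbrain border, was not called (log2 fold change -0.44 ± 1.47 SE, adjusted p = 0.82), and EN2 had 0 counts. PAX6, a factor of neural progenitors, increased from between 1.86 and 7.74 CPM (median 2.71) to 154, 193, and 128 CPM (log2 fold change 5.50 ± 0.32 SE, adjusted p = 2.23e-09), and SOX1, the earliest neural marker of its family, from 2 counts in the primed libraries to 12.6, 10.2, and 17.6 CPM (419.7-fold higher, 95% counting interval 116 to 3474, adjusted p = 7.35e-07). Of the HOX genes, which are transcribed from the hindbrain backward, 6 of 25 tested rose and 1 fell (median 0.5), shares near or below the background. The genes that rose were HOXA2, HOXA3, HOXB2, HOXB3, HOXD3, and HOXA10, and 5 of them belong to paralog groups 2 and 3. Of these 5, HOXD3 was near the floor, with 0 counts in primed cells and 1.04, 1.02, and 0.809 CPM in t2iLGöY cells (at least 3.16-fold higher, adjusted p = 0.0112). HOXB2 went from between 2.16 and 3.81 CPM (median 2.42) to 37.2, 33, and 34.4 CPM (log2 fold change 3.73 ± 0.26 SE, adjusted p = 1.79e-08), and HOXA10 reached only 2.71 CPM, with the call lost without t2iLGöY replicate 2 (adjusted p = 0.0692).

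Proneural and neuronal genes were higher almost without exception. Of 26 tested, 24 rose and 1 fell (median 5.31, or 4.49 with bounds), and their summed level was between 294 and 360.2 CPM in primed and between 3550 and 4045 CPM in t2iLGöY libraries. The part that neuronal, crest, or pigment cells had in the other differences was not tested. NEUROD4 and INSM1, which follow proneural factors in newborn neurons, had 0 counts in the 6 primed libraries. They reached 46.3, 45.5, and 59.5 CPM (at least 167-fold higher, adjusted p = 1.56e-08) and 59.5, 64.5, and 61 CPM (at least 204-fold higher, adjusted p = 5.75e-09), respectively. The Notch ligand DLL1 increased from between 0.143 and 2.48 CPM (median 0.863) to 94.2, 90.9, and 79.2 CPM (log2 fold change 6.16 ± 0.43 SE, adjusted p = 1.66e-08).

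Structural and guidance genes of neurons were found at the same time. TUBB3, the neuronal β-tubulin, increased from between 7.03 and 12.9 CPM (median 10.3) to 678, 679.5, and 714 CPM (log2 fold change 6.08 ± 0.14 SE, adjusted p = 1.88e-13). DCX, a microtubule protein of migrating neurons, increased from between 0 and 4.53 CPM (median 2.53) to 615, 677, and 633 CPM (log2 fold change 7.95 ± 0.32 SE, adjusted p = 4.71e-11), and STMN2 from between 5.42 and 23.4 CPM (median 11.1) to 218, 238, and 212 CPM (log2 fold change 4.27 ± 0.29 SE, adjusted p = 1.05e-08). All 3 were low in primed cells. DCC, the netrin receptor of commissural axons, had 3 counts in the primed libraries together and 266, 305, and 280.2 CPM in t2iLGöY cells (5946-fold higher, 95% counting interval 2034 to 28840, adjusted p = 1.58e-13). SYT1, a synaptic vesicle protein that primed cells already expressed, was the member that fell, from between 116 and 162 CPM (median 139) to 64.2, 86.1, and 62 CPM (log2 fold change -0.98 ± 0.14 SE, adjusted p = 2.84e-05), and RBFOX3, a marker of mature neurons, was not called (log2 fold change 0.18 ± 0.45 SE, adjusted p = 0.754). The naming rule ranks rises by the fitted fold, which for genes at 0 counts depends on the fit and is no bound, and 8 of the 10 genes it picked had 0 counts in every primed library. Besides NEUROD4, INSM1, and RSPO2, these were the neuropeptide genes SCG2, at 82.7, 68.5, and 87.3 CPM (at least 263-fold higher, adjusted p = 3.04e-09), and ADCYAP1, at 71.6, 83.3, and 67.3 CPM (at least 245-fold higher, adjusted p = 3.61e-09), and PRDM12, a regulator of sensory neurons, at 30.1, 32.6, and 31.6 CPM (at least 104-fold higher, adjusted p = 9.92e-08). RTL1, an imprinted retrotransposon-derived gene, was at 29.6, 47.7, and 31.3 CPM (at least 119.6-fold higher, adjusted p = 9.05e-08), and CDH19, a cadherin of crest-derived glia, at 38.6, 22.3, and 49.5 CPM (at least 122-fold higher, adjusted p = 1.58e-07).

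**Figure D2:**
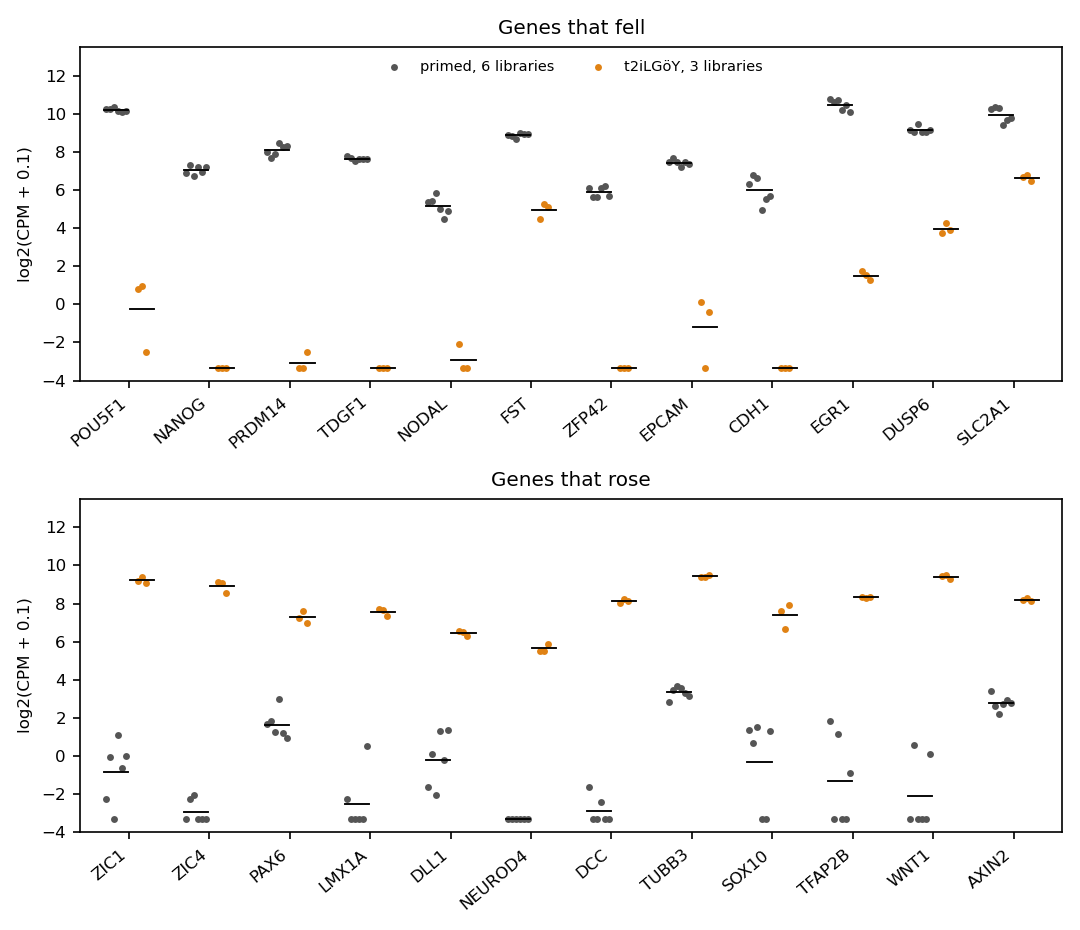
Expression by library, as log2(CPM + 0.1), of 12 genes that fell (top) and 12 that rose (bottom), in 6 primed libraries (gray) and 3 t2iLGöY libraries (orange). Bars mark the mean of the plotted values. No t2iLGöY library overlapped a primed library for any of these genes, and NEUROD4 had 0 counts in all primed libraries.

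Regulators of the neural crest, the migratory cells that leave the dorsal neural tube, were higher too. Of 14 tested, 10 rose and 0 fell (median 3.4), and the summed level went from between 243 and 295 CPM to between 1154 and 1871 CPM. SOX10, the factor of crest, glia, and pigment cells, ranged between 0 and 2.73 CPM (median 1.95) in primed libraries and was at 195, 103, and 246 CPM in t2iLGöY libraries (log2 fold change 7.04 ± 0.54 SE, adjusted p = 4.58e-08). TFAP2B increased from between 0 and 3.46 CPM (median 0.222) to 322, 310.2, and 330.3 CPM (log2 fold change 8.56 ± 0.53 SE, adjusted p = 4.32e-09). EDNRB, the endothelin receptor of migrating crest, increased from between 0 and 4.91 CPM (median 1.26) to 185, 103, and 208 CPM (log2 fold change 6.61 ± 0.49 SE, adjusted p = 2.78e-08), and ETS1 from between 79.1 and 117 CPM (median 82.1) to 223, 137, and 278 CPM (log2 fold change 1.25 ± 0.18 SE, adjusted p = 3e-05). For SOX10, EDNRB, and ETS1 the second t2iLGöY library was the lowest of the 3.

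Pigment cell genes, listed after the values had been seen, followed the same library pattern. Of 15 tested, 11 rose and 0 fell (median 5.48, or 4.17 with bounds), and the summed level went from between 144 and 209.6 CPM to between 818 and 1842 CPM. MITF, the master regulator of the melanocyte lineage, increased from between 2.01 and 7.31 CPM (median 3.68) to 219.8, 104, and 228 CPM (log2 fold change 5.48 ± 0.32 SE, adjusted p = 2.14e-09). TYRP1, an enzyme of melanin synthesis, was at 0 to 0.443 CPM in primed cells and at 227, 92.6, and 229.8 CPM in t2iLGöY cells (log2 fold change 10.99 ± 0.49 SE, adjusted p = 1.12e-10). Primed values of both were low throughout. PMEL, the fibril protein of melanosomes, was already present in primed cells and increased from between 117 and 163 CPM (median 147) to 865, 489, and 1102 CPM (log2 fold change 2.51 ± 0.17 SE, adjusted p = 1.32e-08). MLANA, a melanosome antigen, increased from between 0 and 2.23 CPM (median 0.308) to 49.7, 19.1, and 61.7 CPM (log2 fold change 5.86 ± 0.76 SE, adjusted p = 1.17e-05). Each of these had its lowest t2iLGöY value in replicate 2. Of the 11 pigment genes that rose, 9 were lowest in replicate 2, with a median ratio to the mean of replicates 1 and 3 of 0.464. Of the 10 crest genes that rose, 9 were lowest there (median ratio 0.582).

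Neuronal genes did not share this pattern. Of the 24 proneural and neuronal genes that rose, 2 were lowest and 15 highest in replicate 2 (median ratio 1.1). Over all 3703 genes that rose, 32.4% were lowest in replicate 2, and the median ratio was 1.02. The difference among 3 libraries is given as a description, without a test. Left out of the fit, replicate 2 changed the call for none of MITF, TYRP1, PMEL, MLANA, SOX10, EDNRB, and ETS1, whose log2 fold changes then ran from 1.49 for ETS1 to 11.30 for TYRP1.

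**Figure D3:**
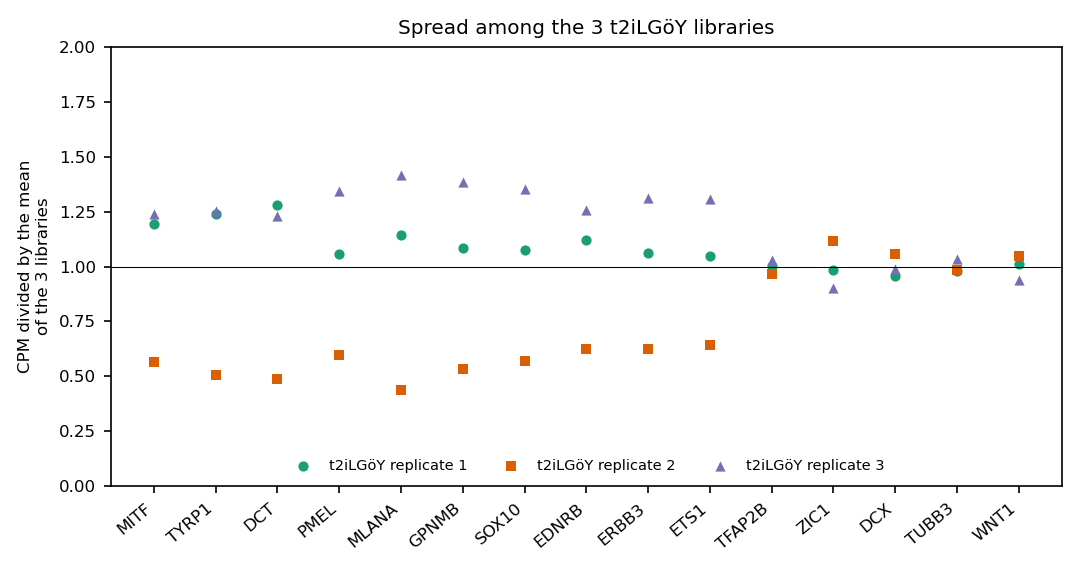
CPM of 15 genes in each of the 3 t2iLGöY libraries, divided by the mean of the 3 (y axis, linear, starting at 0). For the 6 pigment genes from MITF to GPNMB and for SOX10, EDNRB, ERBB3, and ETS1, replicate 2 (squares) lies below replicates 1 (circles) and 3 (triangles), whereas TFAP2B, ZIC1, DCX, TUBB3, and WNT1 differ little among the 3.

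Genes of the dorsal midline tissues were also found. TTR, the transthyretin of choroid plexus and retinal pigment epithelium, had 3 counts in the 6 primed libraries together and 155, 171, and 125 CPM in t2iLGöY cells (3165-fold higher, 95% counting interval 1083 to 15350, adjusted p = 5.43e-12). Of 9 choroid plexus genes tested, a list compiled after the values had been seen, 6 rose and 0 fell. Those that rose included TTR, OTX2, LMX1A, and FOXJ1, which are also members of other lists here. OTX2 was already expressed in primed cells. FOLR1 and KL, which are abundant in choroid plexus epithelium, had at most 1 count in any t2iLGöY library. Of 7 genes tested of eye field, retina, and retinal pigment epithelium, likewise listed afterward, 3 rose and 1 fell (median 1.32). TTR, OTX2, and LHX2 rose, the last of these a factor of eye and forebrain (log2 fold change 5.58 ± 0.75 SE, adjusted p = 1.51e-05), and SERPINF1, a secreted factor, fell (log2 fold change -1.66 ± 0.26 SE, adjusted p = 8.13e-05), whereas RPE65, BEST1, and LRAT were not called (log2 fold change 1.49 ± 1.13 SE, adjusted p = 0.287, log2 fold change 0.53 ± 1.16 SE, adjusted p = 0.72, and log2 fold change 0.13 ± 0.87 SE, adjusted p = 0.91), and SIX6 of the eye field had 0 counts in all 9 libraries. FOXJ1, the regulator of motile cilia, increased from between 0 and 3.37 CPM (median 0.737) to 40.6, 52.2, and 34.4 CPM (log2 fold change 5.18 ± 0.56 SE, adjusted p = 1.67e-06). Of 16 motile cilia genes, likewise listed afterward, 13 rose and 0 fell (median 3.64, or 3.07 with bounds). DRC1, of the dynein regulatory complex, was at 0 to 0.558 CPM in primed and at 17, 27.5, and 13.2 CPM in t2iLGöY cells (log2 fold change 6.51 ± 0.78 SE, adjusted p = 4.96e-06).

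Epithelial genes fell. Of 14 tested, 11 fell and 0 rose (median -5.88, or -5.12 with bounds). The 11 include GRHL2, whose libraries overlapped between the groups. It was at 16.7, 31.9, and 25.5 CPM in the J columns and at 0 counts in the K columns and in t2iLGöY cells. CDH1, E-cadherin, was found between 30.4 and 108 CPM (median 66) in primed cells and had 0 counts in each t2iLGöY library (at least 328-fold lower, adjusted p = 1e-07). EPCAM decreased from between 146 and 207 CPM (median 176) to 0.973, 0, and 0.662 CPM (log2 fold change -8.31 ± 0.36 SE, adjusted p = 8.48e-11), and ESRP1, the epithelial splicing regulator, from between 120.3 and 177 CPM (median 153) to 0.0695, 1.49, and 0.0735 CPM (log2 fold change -8.02 ± 0.44 SE, adjusted p = 1.23e-09). The tight junction claudin CLDN6 decreased from between 458 and 527 CPM (median 469) to 13.6, 13.6, and 4.85 CPM (log2 fold change -5.47 ± 0.26 SE, adjusted p = 2.11e-10). VTCN1, an immune checkpoint ligand of epithelia, was found between 104 and 144 CPM (median 111) in primed cells and at 0 counts in t2iLGöY cells (at least 551-fold lower, adjusted p = 1.25e-11), and so was NTN5, a netrin, between 21 and 41.5 CPM (median 30.2) in primed cells (at least 147-fold lower, adjusted p = 1.1e-08).

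The cadherin switch went with a mixed picture of mesenchymal genes. Of 16 tested, 8 rose and 5 fell (median 1.35). CDH2, the N-cadherin of neural and mesenchymal cells, increased from between 200.1 and 356 CPM (median 263) to 1336, 1410, and 1222 CPM (log2 fold change 2.31 ± 0.15 SE, adjusted p = 8.5e-09), and VIM, vimentin, from between 450.4 and 843 CPM (median 639.7) to 3329, 2950, and 3278 CPM (log2 fold change 2.30 ± 0.15 SE, adjusted p = 7.18e-09). The repressors of E-cadherin diverged, ZEB1 increasing from between 22.6 and 46.2 CPM (median 35.7) to 186, 196, and 196 CPM (log2 fold change 2.43 ± 0.16 SE, adjusted p = 8.02e-09) and SNAI2 from between 4.46 and 11.3 CPM (median 5.33) to 88.4, 53.5, and 101 CPM (log2 fold change 3.56 ± 0.30 SE, adjusted p = 1.04e-07), while SNAI1 decreased from between 14.8 and 38.2 CPM (median 22.2) to 2.64, 2.04, and 1.91 CPM (log2 fold change -3.43 ± 0.38 SE, adjusted p = 2.02e-06). The fibroblast list, which also serves as a check for stromal cells, had 4 higher and 3 lower members of 11 tested. Its defining proteoglycans DCN and LUM had 0 counts in all 9 libraries, its summed level ranged from 1286 to 2747 CPM in primed and from 3823 to 4626 CPM in t2iLGöY libraries, and most of the latter was COL1A1, which increased from between 648 and 1815 CPM (median 1367) to 3070, 2983, and 3530 CPM (log2 fold change 1.31 ± 0.22 SE, adjusted p = 0.00014). Among all collagen genes, a list made afterward, 18 of 37 tested rose and 7 fell. COL2A1, of cartilage and notochord and of early neural tissue, went from between 6.21 and 21.4 CPM (median 10.2) to 972, 899, and 795 CPM (log2 fold change 6.26 ± 0.27 SE, adjusted p = 7.43e-11), while COL6A3 decreased from between 15.1 and 42.7 CPM (median 29.4) to 2.71, 0.339, and 4.26 CPM (log2 fold change -3.62 ± 0.55 SE, adjusted p = 5.23e-05).

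Among genes of other lineages that could be tested, few rose. Of 18 endoderm and mesoderm regulators listed, 11 had enough counts for a test, of which 1 rose and 4 fell (median -1.59). TBXT, a mesoderm regulator, was not in the count tables under this symbol. EOMES, of early mesendoderm, decreased from between 5.95 and 16 CPM (median 8.51) to 1.25, 0, and 1.69 CPM (log2 fold change -3.26 ± 0.82 SE, adjusted p = 0.00351), and MIXL1 from between 3.36 and 18.1 CPM (median 10.1) to 1.74, 0, and 0 CPM (log2 fold change -4.19 ± 1.07 SE, adjusted p = 0.0041). CXCR4, the member that rose, is a chemokine receptor that definitive endoderm shares with neural and crest cells, and it was at 48.3, 56.3, and 48.1 CPM in t2iLGöY cells (log2 fold change 4.45 ± 0.90 SE, adjusted p = 0.000701). SOX17 had 0 counts in each t2iLGöY library and GATA6 at most 0.695 CPM (log2 fold change -2.22 ± 1.94 SE, adjusted p = 0.354). Of 16 trophoblast and amnion genes listed, 6 were tested. TFAP2A and ISL1 rose, which crest and neurons also express, and KRT7 fell. TFAP2A went from between 1.33 and 6.37 CPM (median 2.82) to 136, 109, and 163 CPM (log2 fold change 5.36 ± 0.34 SE, adjusted p = 5.75e-09). CDX2, TP63, VGLL1, and CGA had 0 counts in all 9 libraries, where absent expression cannot be told apart from an annotation that collects no reads.

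**Figure D4:**
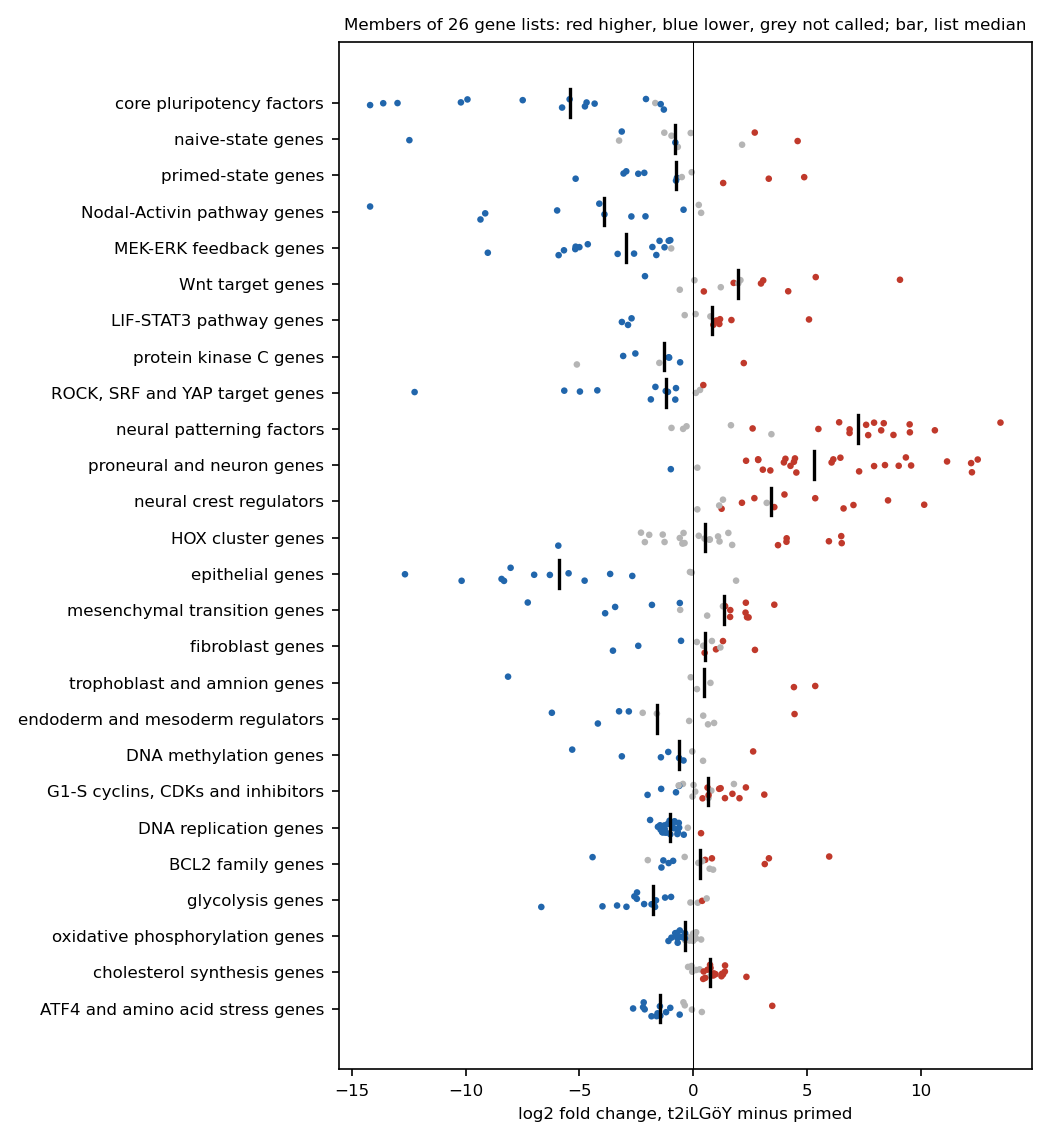
Log2 fold change between t2iLGöY and primed cells (x axis) of every tested member of the gene lists of the first set that are reported (y axis). Points are genes, red if called higher, blue if called lower, and gray if not called, and a black bar marks the list median. Core pluripotency, Nodal-Activin, MEK-ERK feedback, and epithelial genes lie to the left, neural patterning, proneural, and crest genes to the right.

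In the DNA methylation machinery, lower values were found among both writers and erasers. Of 9 tested, 6 fell, 1 rose, and 2 were not called (median -0.62). DNMT3B, the de novo methyltransferase that is most expressed in the epiblast, decreased from between 2918 and 3384 CPM (median 3076) to 82.7, 75.7, and 75.3 CPM (log2 fold change -5.31 ± 0.078 SE, adjusted p = 1.79e-15). DNMT3A, the other de novo enzyme, decreased from between 344 and 400.1 CPM (median 379) to 175, 197, and 156 CPM (log2 fold change -1.09 ± 0.094 SE, adjusted p = 1.51e-07), and DNMT1, which maintains methylation at replication, from between 296 and 356 CPM (median 319.5) to 253, 214, and 253 CPM (log2 fold change -0.42 ± 0.091 SE, adjusted p = 0.00107). Its partner UHRF1 overlapped between groups, between 159 and 216 CPM (median 188) against 176, 177, and 200.2 CPM (log2 fold change -0.04 ± 0.10 SE, adjusted p = 0.767). Of the dioxygenases that oxidize methylcytosine, TET1 decreased from between 167 and 261 CPM (median 215) to 84, 82.8, and 80.5 CPM (log2 fold change -1.42 ± 0.13 SE, adjusted p = 3e-07). TET2, in contrast, increased from between 12.5 and 26 CPM (median 18.6) to 122, 119.9, and 111 CPM (log2 fold change 2.63 ± 0.19 SE, adjusted p = 1.78e-08), and TET3 was not called (log2 fold change 0.43 ± 0.19 SE, adjusted p = 0.0713). It was called higher without primed replicate K2 (0.54, adjusted p = 0.0178), with J columns alone, with all groups in 1 fit, with at least 10 counts in every library, and by DESeq2 (adjusted p 0.0147 to 0.0374). The glycosylase TDG decreased from between 130 and 181 CPM (median 152) to 101, 100.1, and 97.5 CPM (log2 fold change -0.62 ± 0.11 SE, adjusted p = 0.000257), and ZFP57, which protects imprints, from between 19.3 and 40.5 CPM (median 29.1) to 3.4, 4.34, and 2.13 CPM (log2 fold change -3.13 ± 0.36 SE, adjusted p = 2.92e-06). DNMT3L, the cofactor of de novo methylation, had 0 counts in each t2iLGöY library and was not tested.

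Most DNA replication genes were lower. Of 25 tested, 23 fell, by 0.41 for TYMS to 1.89 for ORC1 on the log2 scale, RRM1 rose, and GINS3 was not called (log2 fold change -0.23 ± 0.36 SE, adjusted p = 0.604), with a list median of -1.04. The helicase subunit MCM4 decreased from between 456 and 551 CPM (median 498) to 191, 173, and 189 CPM (log2 fold change -1.44 ± 0.086 SE, adjusted p = 3.28e-09), and its neighbors in the complex, MCM2, MCM3, MCM5, MCM6, and MCM7, fell by 1.12 to 1.43 on the log2 scale. ORC1, of the origin recognition complex, decreased from between 113 and 146 CPM (median 131) to 37.7, 33.2, and 33.7 CPM (log2 fold change -1.89 ± 0.12 SE, adjusted p = 6.49e-09). Genes of the G1-S transition went in both directions, with 10 of 22 higher and 4 lower (median 0.65).

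Cyclins were found on both sides. CCNE1, which drives S phase entry, decreased from between 85 and 111 CPM (median 98.7) to 29.7, 22.2, and 21.3 CPM (log2 fold change -2.004 ± 0.15 SE, adjusted p = 4.42e-08), whereas its paralog CCNE2 increased from between 6.47 and 15.2 CPM (median 9.76) to 21.7, 16.4, and 28.6 CPM (log2 fold change 1.14 ± 0.29 SE, adjusted p = 0.00419). CCND2, a D-type cyclin, decreased from between 381 and 565 CPM (median 454) to 169.7, 153, and 211 CPM (log2 fold change -1.41 ± 0.14 SE, adjusted p = 1.02e-06), and CCNA2, of S and G2 phase, from between 189.9 and 227 CPM (median 205) to 109, 126, and 131 CPM (log2 fold change -0.76 ± 0.10 SE, adjusted p = 9.58e-06). D-type cyclins did not move together. CCND1 increased from between 132 and 242 CPM (median 193) to 304, 305, and 283 CPM (log2 fold change 0.63 ± 0.16 SE, adjusted p = 0.00362), whereas CCND3 overlapped between the groups (log2 fold change 0.09 ± 0.35 SE, adjusted p = 0.848). The kinase CDK2 increased from between 79.3 and 113 CPM (median 95.2) to 265, 182, and 304 CPM (log2 fold change 1.40 ± 0.14 SE, adjusted p = 1.06e-06), and CDK4 rose less (log2 fold change 0.41 ± 0.11 SE, adjusted p = 0.00459), with overlapping libraries. Of 6 inhibitors, CDKN1B, CDKN1C, CDKN2C, and CDKN2D rose, and CDKN1A (log2 fold change 0.01 ± 0.53 SE, adjusted p = 0.984) and CDKN2B (log2 fold change -0.64 ± 0.97 SE, adjusted p = 0.603) were not called. The call of CDKN2D was lost without t2iLGöY replicate 2 (adjusted p = 0.0709) and that of CDKN2C without any of primed replicates J2, K2, and K3 and the 3 t2iLGöY replicates (adjusted p 0.0545 to 0.124). CDKN1B increased from between 9.37 and 27.6 CPM (median 22.3) to 54.3, 67.6, and 75.3 CPM (log2 fold change 1.72 ± 0.30 SE, adjusted p = 0.000192). CDKN1C increased from between 4.24 and 24.1 CPM (median 14.3) to 64, 59.8, and 67.8 CPM (log2 fold change 2.03 ± 0.34 SE, adjusted p = 0.000148). BMI1, a polycomb protein that represses inhibitor genes, increased from between 8.03 and 29.2 CPM (median 17.1) to 79.8, 93.8, and 84.6 CPM (log2 fold change 2.16 ± 0.28 SE, adjusted p = 1.07e-05).

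The BCL2 family, which sets the threshold for apoptosis, showed both directions, with 5 of 16 higher and 5 lower (median 0.31). The BH3-only gene BMF increased from between 8.68 and 19.1 CPM (median 15) to 128, 113, and 139.6 CPM (log2 fold change 3.14 ± 0.19 SE, adjusted p = 2.99e-09) and HRK, which is known from neurons, from between 1.34 and 6.03 CPM (median 1.76) to 25.3, 28.8, and 22.6 CPM (log2 fold change 3.33 ± 0.44 SE, adjusted p = 1.24e-05), while PMAIP1, or NOXA, decreased from between 17.3 and 33.3 CPM (median 29.3) to 1.39, 1.43, and 1.03 CPM (log2 fold change -4.42 ± 0.33 SE, adjusted p = 2.91e-08). The antiapoptotic BCL2 was not called, between 1.15 and 6.86 CPM (median 3.67) in primed and 7.85, 7.74, and 5.96 CPM in t2iLGöY libraries (log2 fold change 0.88 ± 0.58 SE, adjusted p = 0.222), and MCL1 fell (log2 fold change -0.88 ± 0.11 SE, adjusted p = 1.16e-05).

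Most glycolytic genes were lower. Of 18 tested, 14 fell and 1 rose (median -1.78). The glucose transporters SLC2A1 and SLC2A3 decreased from between 675 and 1291 CPM (median 1034) to 104, 109.9, and 87.3 CPM (log2 fold change -3.34 ± 0.21 SE, adjusted p = 5.11e-09) and from between 416 and 562 CPM (median 479.7) to 27.7, 17.4, and 48.5 CPM (log2 fold change -3.98 ± 0.26 SE, adjusted p = 6.93e-09). The phosphofructokinases diverged by isoform. PFKP, the platelet type, decreased from between 72.8 and 164 CPM (median 117) to 1.39, 0, and 2.21 CPM (log2 fold change -6.67 ± 0.52 SE, adjusted p = 5.09e-08), PFKM rose slightly, from between 84.1 and 128 CPM (median 109.6) to 154, 136, and 139 CPM (log2 fold change 0.39 ± 0.12 SE, adjusted p = 0.0139), a call lost without t2iLGöY replicate 1 (adjusted p = 0.0759), and PFKL was not called (log2 fold change 0.20 ± 0.14 SE, adjusted p = 0.234). LDHA, which turns pyruvate into lactate, decreased from between 392.1 and 1235 CPM (median 747) to 106, 102, and 102 CPM (log2 fold change -2.93 ± 0.34 SE, adjusted p = 3.99e-06). Genes of the hypoxia response, listed afterward, were mostly lower too, 10 of 14 against 2 that rose. The list also holds the hypoxia factors HIF1A and EPAS1. It shares SLC2A1, which is thus counted in both, with the glycolysis list. ADM, adrenomedullin, was found between 17.8 and 46.7 CPM (median 27.8) in primed cells and at 0 counts in t2iLGöY cells (at least 136-fold lower, adjusted p = 4.05e-08).

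Genes of oxidative phosphorylation moved by smaller amounts. Of 24 tested, 12 fell and 0 rose (median -0.36). ATP5A1, the catalytic-head subunit of the ATP synthase, decreased from between 699.6 and 729 CPM (median 712) to 417, 395, and 426 CPM (log2 fold change -0.79 ± 0.062 SE, adjusted p = 5.63e-08). Amino acid synthesis and transport genes controlled by ATF4 were lower in 12 of 17 cases and higher in 1 (median -1.44). ASNS, asparagine synthetase, decreased from between 151 and 253 CPM (median 199) to 47.3, 46.5, and 41.5 CPM (log2 fold change -2.17 ± 0.15 SE, adjusted p = 1.18e-08), and SLC7A5, a transporter of large neutral amino acids, from between 882 and 1027 CPM (median 939) to 241, 163, and 243 CPM (log2 fold change -2.13 ± 0.12 SE, adjusted p = 1.27e-09). DDIT4, an inhibitor of mTORC1, was the member that rose, from between 7.75 and 17.7 CPM (median 10.1) to 119, 116, and 136 CPM (log2 fold change 3.47 ± 0.23 SE, adjusted p = 9.26e-09). Cholesterol synthesis was the exception among metabolic pathways. Of 21 genes, 15 rose and 0 fell (median 0.76). HMGCS1, at the entry of the pathway, increased from between 192 and 234 CPM (median 214) to 559.6, 589.5, and 542 CPM (log2 fold change 1.39 ± 0.08 SE, adjusted p = 1.98e-09). No primed library overlapped a t2iLGöY library for it.

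To ask which of these values were particular to t2iLGöY, its 3 libraries were set against those of 4 other protocols, NHSM-v, 4i/L/b, TL2i, and LCDM (EPS), with 3 libraries each, which were picked as the most like it with earlier results of these data known. These are other mixtures of cytokines and inhibitors, applied to the same line, and TL2i includes tamoxifen. Of 14233 genes tested, 490 (3.44%) were higher in t2iLGöY cells than in each of the 4, and 564 (3.96%) were lower. With upper-quartile normalization the split was 594 against 449. The 4 tests share the t2iLGöY libraries, and CPM in this comparison were normalized over its 15 libraries, so that values for t2iLGöY cells differ slightly from those above. Of the 490 genes, 413 were also higher than in primed cells and 22 lower, and of the 564, 339 were also lower than in primed cells and 46 higher. By root mean square log2 difference over all genes tested, LCDM (EPS) was the nearest of the 4 at 1.04, followed by NHSM-v at 1.29, 4i/L/b at 1.33, and TL2i at 1.42.

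Pigment, midline, and Wnt ligand genes were prominent among those higher in t2iLGöY cells. TYRP1 was at 182 ± 78.1 CPM in t2iLGöY cells and at no more than 1.17 CPM in any library of the other 4 (smallest log2 difference 7.57 ± 0.43 SE, from 4i/L/b, largest adjusted p of the 4 = 3.86e-13). TTR was at 150.1 ± 23.3 CPM, against up to 2.46 CPM elsewhere (smallest log2 difference 6.22 ± 0.36 SE, from 4i/L/b, largest adjusted p of the 4 = 1.28e-13), and OTX1 at 117 ± 19.6 CPM, against up to 3.71 CPM (smallest log2 difference 5.48 ± 0.27 SE, from LCDM (EPS), largest adjusted p of the 4 = 4.91e-14). CBLN1, a synaptic organizer of the cerebellin family, was at 557 ± 96.4 CPM, against up to 24.1 CPM (smallest log2 difference 4.82 ± 0.15 SE, from LCDM (EPS), largest adjusted p of the 4 = 1.06e-18), with primed libraries between 25 and 47.2 CPM (median 33.1). CCDC60 and GFY completed the 6 genes with the largest smallest difference, at 28.7 ± 9.65 and 12.6 ± 2.4 CPM. GFY was between 5.19 and 9.06 CPM (median 6.16) in primed libraries and rose little from there (log2 fold change 0.88 ± 0.34 SE, adjusted p = 0.0387). That call against primed cells was lost without any of primed replicates J1, K1, and K3 and the 3 t2iLGöY replicates (adjusted p 0.0546 to 0.159). By list, 7 of 15 pigment genes, 6 of 16 cilia genes, 9 of 32 Wnt ligand, R-spondin, and Frizzled genes, and 7 of 21 neural patterning factors were higher in t2iLGöY cells than in each of the 4. Lower than in each were 0 pigment and 0 cilia genes, 2 of the 32, and 1 of the 21. Of 13 Wnt target genes, 0 were higher in each and 2 were lower. WNT1 stood at 678 ± 39.6 CPM, against 90.3 in TL2i and 19.9 in LCDM (EPS) cells, the highest and the lowest of the 4 (smallest log2 difference 2.91 ± 0.11 SE, from TL2i, largest adjusted p of the 4 = 1.61e-17). Of the 26 proneural and neuronal genes, 2 were higher in each and 0 lower.

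By list, 9 of 18 glycolysis genes, 6 of 25 replication genes, 5 of 19 immediate early genes, and 4 of 16 MEK-ERK feedback genes were lower in t2iLGöY cells than in each of the 4, and none of them was higher. Of 13 fibroblast genes, 2 were lower, LUM and DCN, and 0 higher, and of 38 collagen genes 4 were lower and 3 higher. LUM and DCN, which were at 0 counts in primed and t2iLGöY libraries, were detected in all 12 libraries of the other protocols, with group means of 3.41 CPM in LCDM (EPS) to 47.8 CPM in 4i/L/b cells for LUM, and of 1.86 CPM in NHSM-v to 42.3 CPM in 4i/L/b cells for DCN. LOXL4, FOSB, and ANKRD1, all at 0 counts in t2iLGöY cells, were also among the genes with the largest smallest difference. PFKP was at 1.19 ± 1.11 CPM, against a lowest group mean of 19 CPM in LCDM (EPS) cells (smallest log2 difference -4.01 ± 0.33 SE, from LCDM (EPS), largest adjusted p of the 4 = 2.08e-10), and COL6A3 at 2.43 ± 1.97 CPM, against 46.7 CPM in the same cells and 1317 CPM in NHSM-v cells (smallest log2 difference -4.29 ± 0.31 SE, from LCDM (EPS), largest adjusted p of the 4 = 1.55e-11). EGR1, at 2.77 ± 0.492 CPM, was at 36.5 CPM in TL2i cells, the lowest of the 4 (smallest log2 difference -3.72 ± 0.16 SE, from TL2i, largest adjusted p of the 4 = 1.95e-16). Of the list of core pluripotency factors, 1 of 10 tested was lower in each, namely the surface glycoprotein PODXL (smallest log2 difference -0.45 ± 0.10 SE, from 4i/L/b, largest adjusted p of the 4 = 0.000854), and 0 higher. Of the 15 members in the count tables, only these 10 had enough counts in the 15 libraries for a test. The others could not be called lower, so that the count does not show whether their loss was particular to t2iLGöY.

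**Figure D5:**
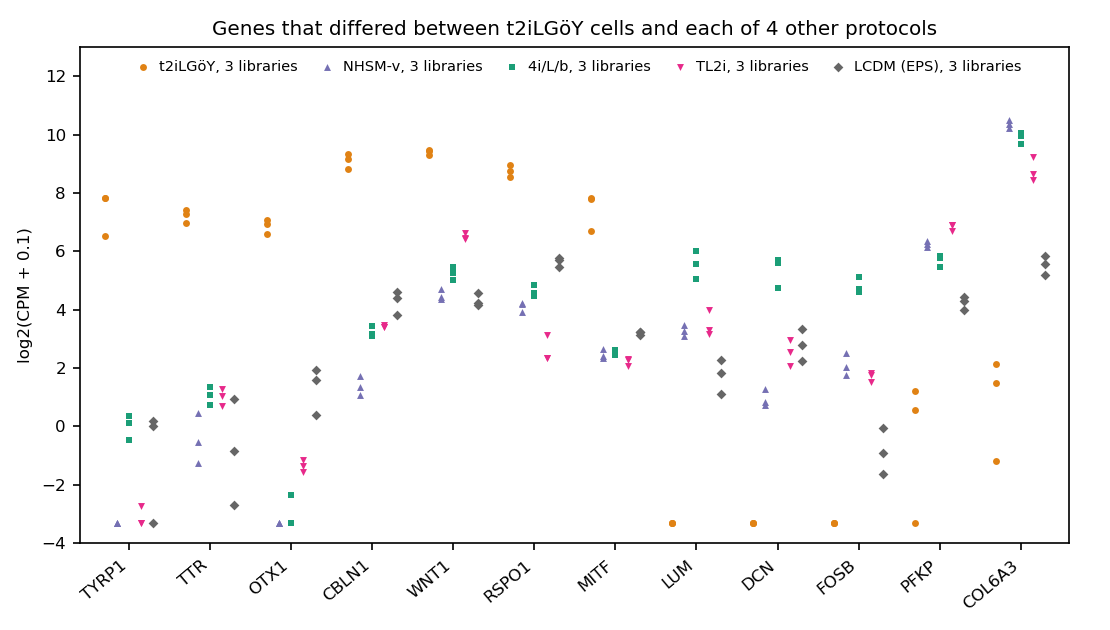
Expression by library, as log2(CPM + 0.1) on the y axis, of 12 genes that differed between t2iLGöY cells (orange) and each of 4 other protocols, 3 libraries each. TYRP1, TTR, OTX1, CBLN1, WNT1, RSPO1, and MITF lie above every library of the other 4, and LUM, DCN, FOSB, PFKP, and COL6A3 below.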

How the data were processed

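RNA was lysed in Trizol, purified on RNeasy columns, and turned into directional mRNA libraries (NextFlex Rapid kit), then sequenced on a NextSeq500 as single reads of 75 bases. The authors deposited raw read counts per gene symbol, 1 table for each group. The submitters' processing notes name bcl2fastq, cutadapt, HISAT2, and HTSeq. Their versions, the genome build, the annotation, and whether HTSeq used strand are not given in the sources used here, so that overlapping and antisense genes, and genes with near-identical copies, are uncertain. All columns of per-sample values were used (0 left out), and every library had its group from the labels. The labels give the primed libraries as 2 sets, but the letters J and K of the columns could not be assigned to them.

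Genes were kept by edgeR's filterByExpr and tested with edgeR 4.0.16 (R 4.3.3) by the quasi-likelihood F test after TMM normalization, with Benjamini-Hochberg adjustment over all genes tested and a threshold of 0.05. The 3 t2iLGöY and 6 primed libraries made 1 fit, and the comparison with 4 other protocols was a fit of 15 libraries with 4 contrasts, in which a gene had to pass in the same direction in all 4. SE is the absolute log2 fold change over the root of F. The main script was tested on simulated data first. DESeq2 1.42.0, other normalizations, filters, and thresholds, a fit of all 8 groups, the J or K columns alone, and each library left out in turn served as alternatives. No genome or sequence was used.

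The comparison and its 27 gene lists were chosen with earlier results of these data known, and 9 further lists (BMP, pigment cell, retinal pigment epithelium, choroid plexus, immediate early, hypoxia, motile cilia, Wnt ligand and receptor, collagen) after the values had been seen. Of 646 listed symbols, 621 were in the tables. Named were genes of the study's text, the 10 largest rises and falls among called genes with a mean of at least 8 CPM in the higher group and no overlap of libraries, up to 3 called genes per list and direction, the DNA methylation list in full, 6 genes in each direction against the 4 protocols, and the 5 genes with most counts in t2iLGöY cells among those with 3 counts or fewer in each primed library. Other members are named to describe their list. A few genes and 1 list that this rule covers are not reported here. COL6A3, PFKP, WNT1, RSPO1, MITF, EGR1, and PODXL in the comparison of protocols, and CBLN1 and GFY in primed cells, were added after their values had been seen.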

Additional observations from a re-analysis of the deposited data

Results flagged for a closer look

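Among the 6 primed libraries, 7 of 174 genes looked at had a highest or lowest library that stood apart from the next by more than Dixon's critical value, which chance alone gives in about 1 in 20 groups. The 3 t2iLGöY libraries are too few for this check. Primed replicate J3, the shallowest library, was the highest for 4 of the genes. In it DUSP6 stood at 698 CPM, against 559 in the next library, FZD2 at 28.1 against 17.6, MCM5 at 257 against 210, and WNT8A at 25.5 against 10.8 CPM. CLDN6 was highest in primed replicate J2 at 527 CPM, against 478. FZD8 was lowest in primed replicate J1 at 12.6 CPM, against 26.4. RHOB, which was not called, was highest in primed replicate K1 at 333 CPM, against 228. DUSP6, FZD8, MCM5, WNT8A, CLDN6, and FZD2 kept their calls with each library left out in turn.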

How the results depend on the processing

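Against primed cells, 7631 genes were called by DESeq2, 7413 with upper-quartile normalization, 7457 without a filter, 6266 with at least 10 counts in every library, and 9324 with all groups in 1 fit. With a log2 fold change of at least 1 required, 4298 genes remained past the threshold, 2417 higher and 1881 lower, by construction of the threshold. Leaving out each library in turn gave 6470 to 7721 called genes, 3155 to 3833 higher and 3315 to 3888 lower. Primed columns J alone gave 6775 and K alone 7524. Against the 4 other protocols, the minimum fold left 205 genes higher and 190 lower, the fit of all groups gave 305 higher (the cause was not tested) and 394 lower, and leaving out each library gave 439 to 498 higher and 509 to 667 lower.

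No paired analysis was possible for the primed comparison because the primed columns could not be matched to numbered samples. Among the 15 libraries of 5 protocols, deviations of same-numbered libraries from their group means correlated at -0.0334 to 0.0701 over 30 pairs, and 5 of 15 libraries correlated best with their own number. With a replicate block, 474 genes were higher and 549 lower.

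Of 259 genes under 16 alternatives, 3903 values kept direction and call, 52 lost the call, 30 gained it, and 37 changed sign, all of the latter in genes without a call. Over the libraries left out in turn, the log2 fold change ran from -0.07 to 0.25 for CCND3, -0.19 to 0.38 for CDKN1A, -1.26 to 0.16 for EN1, -0.64 to 0.02 for GINS3, -0.18 to 0.59 for LRAT, -0.46 to 0.51 for RBFOX3, -0.20 to 0.44 for RNF43, -0.02 to 0.24 for SOCS3, and -0.28 to 0.24 for TFAP2C. With the J columns alone it was -0.25 for BEST1, 0.04 for GINS3, -0.11 for RBFOX3, -0.44 for RNF43, and 0.57 for TFAP2C. With the K columns alone it was -0.33 for CCND3, -0.01 for CDKN1A, 0.37 for EN1, -0.03 for JUND, -0.57 for LRAT, and -0.23 for SOCS3. With all groups in 1 fit CDKN1A was at 0. UHRF1 was at 0.01 with at least 10 counts in every library. Depth limits genes near the floor, where 3 counts or fewer leave a wide counting interval, and the 3 t2iLGöY libraries limit what their spread can show.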
